A study of Rattus norvegicus with 21 samples.

Results

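Primary rat astrocytes that had received small interfering RNA (siRNA) against TDP-43 together with ATP were compared with astrocytes that had received scrambled siRNA. The comparison uses 6 of the 21 libraries of the series, 3 per group, chosen by their labels alone. Astrocytes of neonatal Sprague-Dawley rats were used at passages 2-3, transfected with a lipid reagent, and their poly(A) RNA was sequenced. Groups of 3 libraries are used: TDP-43 siRNA with ATP (knockdown plus ATP), TDP-43 siRNA without ATP (knockdown alone) and scrambled siRNA. Knockdown alone serves to test what differed when ATP was present. The sources used here do not give the dose and duration of ATP or the siRNA's sequence. No group with ATP and scrambled siRNA was analysed here, so an effect of ATP that needs the knockdown cannot be told apart from one that does not. The labels do not tie replicates to different cultures or litters, and p-values therefore weigh differences against a spread between libraries that may be technical.

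TDP-43, encoded by Tardbp, is a nuclear RNA-binding protein that controls splicing and stability of many transcripts, and its loss from the nucleus with aggregation in the cytoplasm is a hallmark of amyotrophic lateral sclerosis and of a form of frontotemporal dementia. ATP outside the cell is a danger and communication signal: damaged cells and active astrocytes release it, ionotropic and G protein-coupled purinergic receptors on astrocytes sense it, and ectonucleotidases on the cell surface break it down to adenosine. Its receptors raise calcium inside the cell and can activate the mitogen-activated protein kinases (MAPK), the calcium-dependent transcription factor family NFAT, and NF-kappaB, a family of factors that drives genes of inflammation.

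Gene counts per library (in M) came to 26.7, 29.3 and 20.2 after knockdown plus ATP, and to 40.3, 11.5 and 15.7 with scrambled siRNA. Of 17311 genes in the table, 12096 passed the filter on low counts and were tested. The first scrambled library stood apart: it had the most gene counts but 3.28 counts of ribosomal RNA repeat elements per 100 gene counts, where the other scrambled libraries held 309 and 238. Fits without it were also made, and counts without it are given below where they moved. Levels are in CPM, gene counts relative to library totals scaled by the trimmed mean of M-values (TMM). Fold changes are log2 values of knockdown plus ATP over scrambled siRNA with their standard error (SE) unless another pair is named, and a gene is said to rise or fall where its edgeR quasi-likelihood p, adjusted by Benjamini and Hochberg over all genes tested, was under 0.05.

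Tardbp was lowered in all 3 libraries given siRNA and ATP. It stood at 24.1, 28.8 and 25.6 CPM after knockdown plus ATP, against 179, 158 and 172 CPM after scrambled siRNA. The groups did not overlap, and the level was 15.5% of that after scrambled siRNA. This gave a log2 fold change of -2.69 (SE 0.13, adjusted p = 1.59e-09). The two-sided exact permutation test on the 3 and 3 values gave p = 0.1, the smallest p this design allows. The libraries after knockdown alone, at 29.6, 20.7 and 24.1 CPM, overlapped with those given ATP (log2 fold change 0.074, SE 0.13, adjusted p = 0.89 against knockdown alone).

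Across all genes tested, 2106 rose (17.4%) and 2415 fell (20%) after knockdown plus ATP, and the median log2 fold change was 0.01. By at least 2-fold, 425 rose (3.51%) and 594 fell (4.91%). All values after knockdown plus ATP lay above all scrambled values for 2991 genes (24.7%) and below them for 2918 (24.1%). These shares are the background against which the gene groups below are to be read. The lists and their members were chosen with earlier results of these data known. A list's excess over these shares is therefore a description and not a test. The balance between rises and falls depends on scaling: with total counts in place of TMM, the median of all genes moved to 0.24 and the calls to 4099 rises and 1400 falls. The 100 most abundant genes held 20.4 to 21.2% of counts after knockdown plus ATP and 25.9 to 27.7% with scrambled siRNA. The median log2 fold change changed sign under that scaling for these lists: RGS family, purinergic receptors and ectonucleotidases, eicosanoid synthesis and receptors, growth factors, inflammasome and pyroptosis, fibroblast, mural and endothelial markers, matrix proteases and inhibitors, endoplasmic reticulum chaperones and UPR, heat shock and small chaperones, fatty acid and lipid synthesis, autophagy and lysosome, glutamate and GABA metabolism and uptake, TDP-43 targets and Wnt, Notch and BMP readout genes. Of the calls, 1260 rises and 1573 falls were made again in each of 6 fits that left out 1 of the compared libraries. The rule that named the 20 largest rises and the 20 largest falls set conditions on level and overlap. It asked for a mean of at least 5 CPM in the higher group and no overlap with scrambled siRNA. Non-overlap of these genes with scrambled siRNA is therefore part of their selection and not a result. All 40 calls were made again in each of the 6 fits. Their selection favoured this, so it does not test how stable the calls are. Among genes named here as rising or falling, a call was lost in at least 1 of these fits for Adk, Adora2b, Birc2, Cd53, Fdps, Glul, Hexa, Hspa5, Ifih1, Itgam, Mapt, Nfkbia, Nfkbie, Nr4a1, Ptprc, Sesn2, Tap1 and Tmem119.

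**Figure D1:**
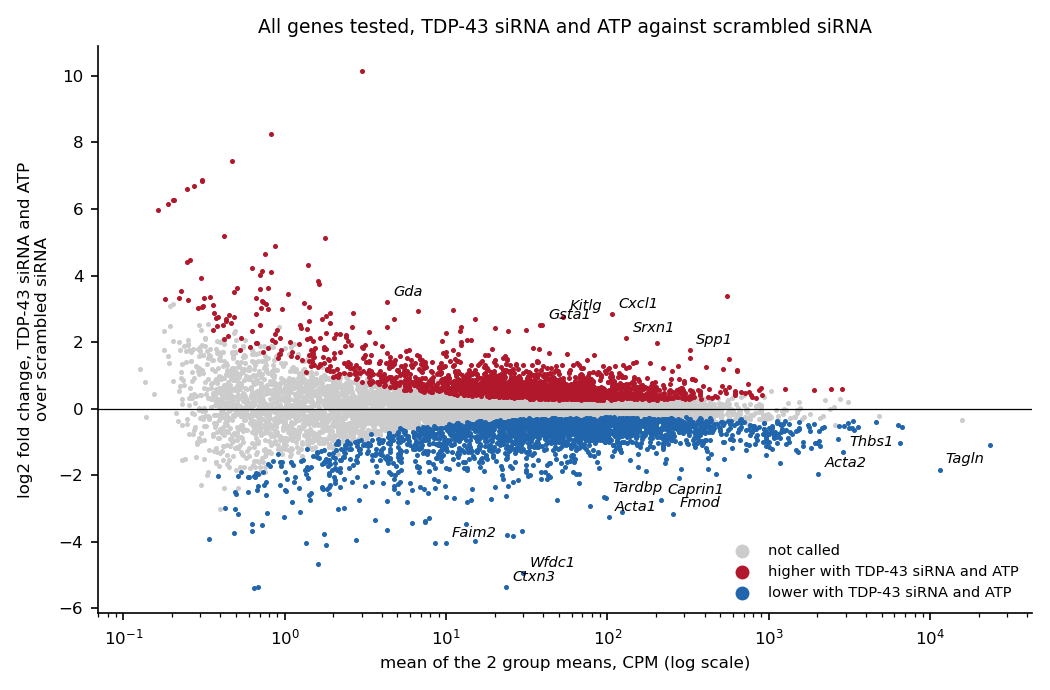
Each point is 1 of the 12096 genes tested, with the mean of the group means in CPM on a log scale (x) and the log2 fold change of knockdown plus ATP over scrambled siRNA (y). Red and blue points are the 2106 genes that rose and the 2415 that fell. Gda stands at 3.21 and Ctxn3 at -5.36, and points above 5 at the left edge are genes with almost no counts after scrambled siRNA, whose fold change has no fixed size.

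Among the 20 largest rises by that rule, which required no overlap with scrambled siRNA, was that of Gda, which encodes guanine deaminase. Over all genes tested, with those the rule left out, log2 fold changes ran from -5.38 to 10.1. It stood at 6.57, 9.88 and 7.14 CPM after knockdown plus ATP, 2.65, 3.65 and 3.17 after knockdown alone and 0.915, 0.39 and 1.1 after scrambled siRNA. No 2 groups overlapped, and the fitted level was 9.24-fold that after scrambled siRNA (log2 fold change 3.21, SE 0.33, adjusted p = 2.82e-06 against scrambled siRNA and log2 fold change 1.33, SE 0.28, adjusted p = 0.031, kept in 0 of 6 fits against knockdown alone). Calls against knockdown alone rest on few libraries, so for each the text says in how many of the 6 fits without 1 of the libraries compared it was kept. The 20 also held Osgin1, an oxidative stress-induced growth inhibitor (2.96), the cannabinoid receptor gene Cnr1 (2.92), the neutrophil-attracting chemokine gene Cxcl1 (2.84) and Kitlg, which encodes the ligand of the receptor KIT (2.77). Then came Olr1, which encodes the scavenger receptor for oxidized low-density lipoprotein (2.70), the aldo-keto reductase gene Akr1b8 (2.68), the secreted protease gene Adamts1 (2.52), the glutathione transferase gene Gsta1 (2.52) and Il1rl1, which encodes the receptor of interleukin 33 (2.46). The bradykinin receptor gene Bdkrb2 (2.43), the stress cytokine gene Gdf15 (2.35), the glutamate transporter gene Slc1a2 (2.34), Rgs16 (2.32), Nrk (2.30), the lipocalin gene Lcn2 (2.26), the sulfiredoxin gene Srxn1 (2.11) and the cystine transporter gene Slc7a11 (2.07) were also among the 20.

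The largest falls by the same rule included genes that stood at a few CPM once siRNA and ATP were present. Ctxn3, which encodes the membrane protein cortexin 3, stood at 0.97, 1.08 and 1.33 CPM after knockdown plus ATP, against 43.6, 46.4 and 48 CPM after scrambled siRNA. Wfdc1, which encodes a secreted protein with a whey acidic protein domain, stood at 2.33, 1.8 and 1.42 CPM after knockdown plus ATP, against 53, 56.6 and 64.6 CPM after scrambled siRNA. The groups were far apart for both (log2 fold change -5.36, SE 0.19, adjusted p = 7.12e-11 for Ctxn3 and log2 fold change -4.95, SE 0.23, adjusted p = 1.45e-09 for Wfdc1). Next were Faim2, an inhibitor of Fas-induced cell death (-4.04), Lix1 (-4.03), Thrsp, which responds to thyroid hormone and is linked to lipid synthesis (-3.98), the fibrinogen gamma chain gene Fgg (-3.94), the calmodulin-binding protein gene Pcp4 (-3.82), Prima1, the membrane anchor of acetylcholinesterase (-3.80), and Megf6 (-3.69). The neuropeptide genes Npvf (-3.47) and Sst (-3.45), known from neurons, were among them. Other members of the 20 were Lims2, a partner of integrin-linked kinase (-3.41), Psca (-3.38), the lectin-pathway protease gene Masp2 (-3.35), Frem3 (-3.28), the skeletal muscle actin gene Acta1 (-3.27), the collagen-binding proteoglycan gene Fmod (-3.15), Fam26e (-3.11) and the glutathione transferase gene Gstm2 (-2.94). None of the 20 passed against knockdown alone, with log2 fold changes from -0.93 for Lix1 to 0.78 for Faim2. Of the 20 largest rises, 6 passed against knockdown alone, among them Gda, Cxcl1, Olr1, Bdkrb2 and Rgs16.

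**Figure D2:**
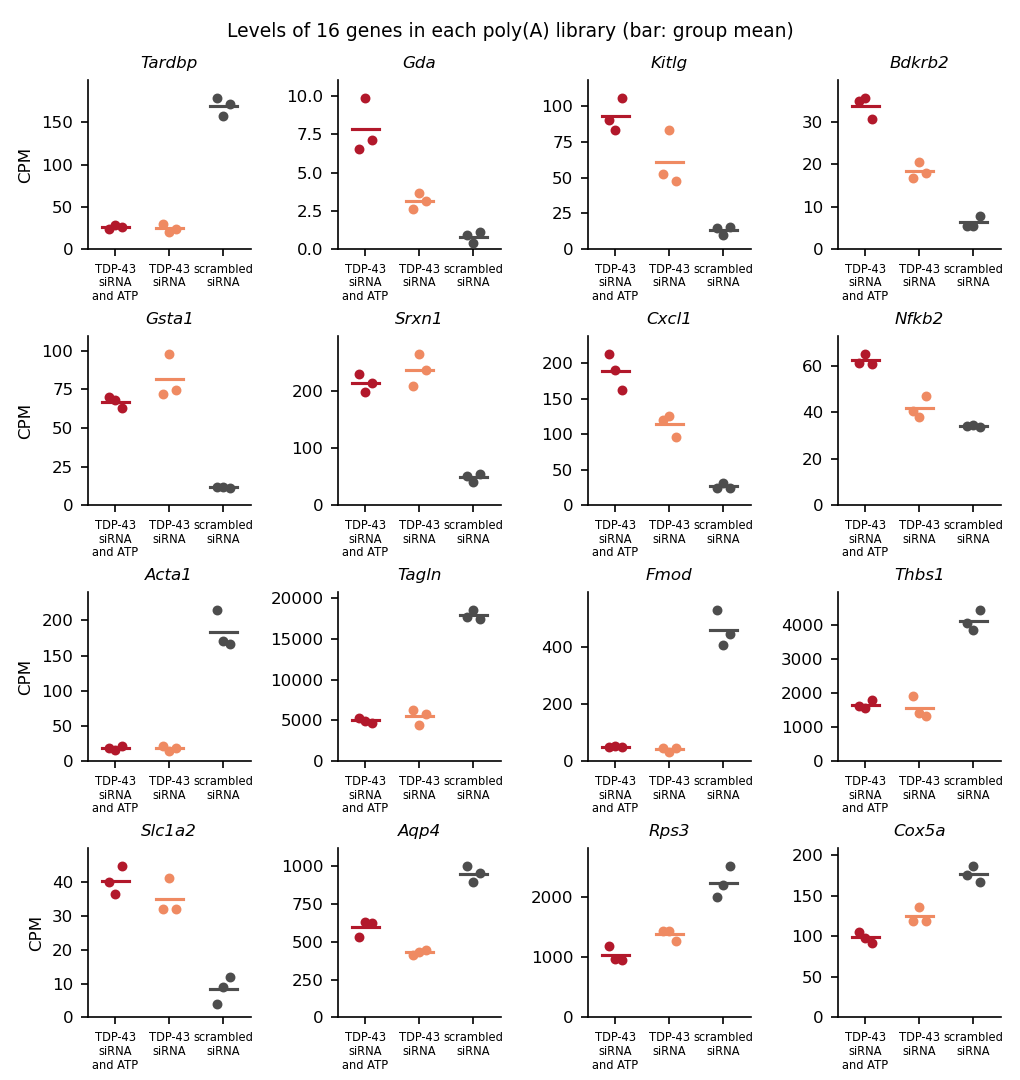
Each panel gives 1 gene in CPM (y) in the 9 poly(A) libraries, with points for the 3 libraries of each group and a bar at the group mean. Gda, Kitlg, Bdkrb2, Gsta1, Srxn1, Cxcl1, Nfkb2 and Slc1a2 lie higher after knockdown plus ATP than with scrambled siRNA in every library, and Tardbp, Acta1, Tagln, Fmod, Thbs1, Aqp4, Rps3 and Cox5a lie lower in every library.

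Genes of the contractile apparatus, most of them markers of smooth muscle and of activated, stress fibre-rich cells, were mostly lower: 1 of the 19 tested members rose and 12 fell, with a median log2 fold change of -0.72 (19 of 20 listed genes were tested). Tagln, which encodes the actin-binding protein transgelin, was the most abundant member. It stood at 5311, 4977 and 4717 CPM after knockdown plus ATP, against 17655, 18484 and 17459 CPM after scrambled siRNA. Its log2 fold change was -1.84 (SE 0.16, adjusted p = 7.03e-07). Acta2, the smooth muscle actin gene, stood at 846, 813 and 832 CPM after knockdown plus ATP, against 4004, 2797 and 2861 CPM after scrambled siRNA. The difference was -1.96 on the log2 scale (SE 0.18, adjusted p = 1.07e-06). Acta1 stood at 19.3, 16.7 and 21.5 CPM after knockdown plus ATP, against 214, 171 and 166 CPM after scrambled siRNA. On the log2 scale this was a change of -3.27 (SE 0.16, adjusted p = 1.45e-09). None of the 3 overlapped between groups, which for Acta1 was required by the rule that named it. Myh11, the smooth muscle myosin heavy chain gene (-1.87), the tropomyosin genes Tpm1 (-1.18) and Tpm2 (-1.53), the myosin light chain gene Myl9 (-1.63), the calponin gene Cnn1 (-1.06) and the intestinal smooth muscle actin gene Actg2 (-1.37) fell as well. The summed level of the list was 13004 to 13765 CPM after knockdown plus ATP, 11573 to 15338 CPM after knockdown alone and 33478 to 34806 CPM after scrambled siRNA. In bulk libraries, fewer cells of a type and less RNA per cell cannot be told apart. Beside knockdown alone, 0 rose and 1 fell of the list, and its median was -0.028. Serum response factor drives many contractile genes through the CArG box, an A- and T-rich motif.

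Of the 19 members tested, 14 had a RefSeq promoter window, 250 bases before to 50 after the annotated start in the GRCr8 assembly, and 1 window held a CArG box on either strand, which was that of Acta1, against 1.28% of the 9157 genes tested that had windows. The Acta1 window (chr19:68784145-68784444, minus strand) is shown because this gene fell furthest of the list, with the CArG box, at position -94 from the start, in capitals. Of the immediate early genes, 4 of 17 with windows held one, namely Egr1, Egr2, Klf6 and Zfp36. In all these searches a gene with several windows was counted once, if any of them matched. Only exact boxes were searched, with nothing but A and T between CC and GG. A box that departs from this form or lies outside the window was not counted.

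Acta1: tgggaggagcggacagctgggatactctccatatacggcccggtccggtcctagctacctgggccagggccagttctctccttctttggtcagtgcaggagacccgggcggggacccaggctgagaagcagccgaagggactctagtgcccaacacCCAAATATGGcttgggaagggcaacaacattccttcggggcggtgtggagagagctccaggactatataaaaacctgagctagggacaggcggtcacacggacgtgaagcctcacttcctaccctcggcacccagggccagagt

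Extracellular matrix genes moved in both directions, with more falls than rises: 7 of the 24 tested members rose and 13 fell, with a median log2 fold change of -0.40 (24 of 30 listed genes were tested). Fmod, which encodes fibromodulin, stood at 50.6, 55 and 49.2 CPM after knockdown plus ATP, against 527, 406 and 445 CPM after scrambled siRNA. This gave a log2 fold change of -3.15 (SE 0.15, adjusted p = 1.45e-09). Thbs1, which encodes thrombospondin 1, an adhesive glycoprotein that astrocytes secrete, stood at 1614, 1565 and 1799 CPM after knockdown plus ATP, against 4057, 3869 and 4439.5 CPM after scrambled siRNA. Its log2 fold change was -1.31 (SE 0.15, adjusted p = 1.03e-05). Neither overlapped between groups, which for Fmod was required by the rule that named it. Thbs2 (-1.36), the microfibril gene Fbn2 (-1.25), the elastin gene Eln (-0.91) and the collagen and elastin crosslinking enzyme genes Lox (-0.95) and Loxl2 (-0.72) fell. The opposite direction was taken by Vcan, which encodes the proteoglycan versican (1.28), and by Spp1, which encodes osteopontin. Spp1 stood at 493, 520.3 and 478 CPM after knockdown plus ATP, 273, 385 and 279.8 after knockdown alone and 132, 178 and 135 after scrambled siRNA, and it rose against both other groups (1.75 against scrambled siRNA and 0.67, kept in 1 of 6 fits against knockdown alone). Without the first scrambled library the list gave 7 rises and 12 falls.

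Among matrix proteases and their inhibitors, 4 of the 17 tested members rose and 7 fell, with a median log2 fold change of -0.16, a median that turned to 0.058 with total-count scaling. Plau, which encodes the urokinase-type plasminogen activator, stood at 77.5, 70.3 and 73.7 CPM after knockdown plus ATP, 57.3, 57.7 and 46.6 after knockdown alone and 334, 218 and 261 after scrambled siRNA. The difference was -1.88 on the log2 scale (SE 0.14, adjusted p = 1.48e-07). The groups after knockdown plus ATP and after scrambled siRNA did not overlap, and with and without ATP the difference did not pass (0.46, adjusted p = 0.141). Adamts1 (2.52), the proteoglycan-cleaving protease gene Adamts9 (1.32) and the gelatinase gene Mmp2 (0.86) rose, and the procollagen protease gene Adamts2 (-1.09), Mmp11 (-0.54) and the tissue inhibitor genes Timp3 (-0.67) and Timp4 (-1.55) fell.

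Targets of NRF2, the factor that drives detoxification and antioxidant genes through the antioxidant response element, included 5 of the 20 largest rises. The list was chosen with earlier results of these data known, so this overlap is not a test. Of the list, 14 of the 31 tested members rose and 6 fell, with a median log2 fold change of 0.31 (31 of 32 listed genes were tested). Srxn1, which encodes sulfiredoxin, an enzyme that reactivates peroxiredoxins, stood at 229, 197 and 213 CPM after knockdown plus ATP, 208, 263 and 235 after knockdown alone and 51.7, 41.3 and 54.3 after scrambled siRNA. Both knockdown groups lay above all scrambled libraries (log2 fold change 2.11, SE 0.13, adjusted p = 1.53e-08 for knockdown plus ATP over scrambled siRNA). Gsta1 stood at 69.9, 67.9 and 63.2 CPM after knockdown plus ATP, 72.2, 97.7 and 74.3 after knockdown alone and 12, 11.9 and 11.1 after scrambled siRNA, with the same separation (log2 fold change 2.52, SE 0.13, adjusted p = 2.66e-09). Osgin1, Akr1b8 and Slc7a11 are given above, and heme oxygenase 1, encoded by Hmox1 (1.22), thioredoxin reductase 1, encoded by Txnrd1 (0.90), and the quinone reductase gene Nqo1 (0.42) rose less. The glutathione transferase gene Gsta4 (-0.98) and the esterase gene Esd (-0.76) fell. With ATP against without it, 0 rose and 0 fell, and the median was -0.13, while DESeq2 called 1 lower, Hmox1. Hmox1 stood at 330.0, 299 and 297 CPM after knockdown plus ATP and 361, 426 and 408 CPM after knockdown alone (log2 fold change -0.37, SE 0.11, adjusted p = 0.149 against knockdown alone).

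The core of the antioxidant response element, TGACNNNGC, was searched on both strands of the promoter windows. It lay in windows of 10 of the 26 tested NRF2 targets that had them, or 38.5%. The share of all genes tested with windows was 15.1%. Of those 10 genes, Gsta1, Txnrd1, Gstp1 (0.65) and Sesn2 (0.32) rose, Esd fell, and Gclm (0.11, adjusted p = 0.473), Me1 (0.14, adjusted p = 0.312), Ephx1 (0.042, adjusted p = 0.84), Prdx1 (-0.26, adjusted p = 0.239) and Ugdh (-0.13, adjusted p = 0.382) did not pass. The Gsta1 window (chr9:31216483-31216782, minus strand) is shown for the largest rise among them, with the match, at position 31 from the start, in capitals.

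Gsta1: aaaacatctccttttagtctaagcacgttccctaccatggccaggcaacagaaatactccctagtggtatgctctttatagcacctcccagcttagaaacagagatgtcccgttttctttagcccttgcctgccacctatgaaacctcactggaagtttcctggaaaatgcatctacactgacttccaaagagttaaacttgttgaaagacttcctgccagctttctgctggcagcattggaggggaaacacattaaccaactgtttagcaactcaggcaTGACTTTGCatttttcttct

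NF-kappaB genes moved in one direction where they moved: 8 of the 19 tested members rose and 0 fell, with a median log2 fold change of 0.35 (19 of 22 listed genes were tested). Against knockdown alone, 5 rose and 0 fell of the 19, where 0.926% of all genes tested rose and 0.141% fell. Nfkb2, which encodes the precursor of the non-canonical subunit, stood at 61.3, 64.9 and 60.8 CPM after knockdown plus ATP, 40.7, 37.8 and 47.2 after knockdown alone and 34, 34.6 and 33.6 after scrambled siRNA. Its 3 values after knockdown plus ATP lay above all others (log2 fold change 0.87, SE 0.11, adjusted p = 1.87e-05 against scrambled siRNA and log2 fold change 0.57, SE 0.11, adjusted p = 0.0166, kept in 1 of 6 fits against knockdown alone). Tnfaip2, a gene induced by tumour necrosis factor, stood at 157, 187 and 152 CPM after knockdown plus ATP, 59.5, 42.7 and 71.3 after knockdown alone and 90.9, 89.5 and 78.5 after scrambled siRNA, highest after knockdown plus ATP and lowest after knockdown alone (log2 fold change 0.94, SE 0.15, adjusted p = 0.000186 against scrambled siRNA and log2 fold change 1.51, SE 0.15, adjusted p = 0.00044, kept in 6 of 6 fits against knockdown alone). Nfkb1, the gene of the canonical subunit precursor (0.56 and 0.51, kept in 0 of 6 fits), and the inhibitor genes Nfkbia (0.43 and 0.58, kept in 1 of 6 fits) and Nfkbie (0.35 and 0.65, kept in 0 of 6 fits), which the pathway itself induces, also rose against both. The adaptor genes Traf1 (1.54) and Traf2 (0.49) and the ubiquitin ligase gene Birc2 (0.37) rose against scrambled siRNA and did not pass against knockdown alone (0.18, adjusted p = 0.853 for Traf1).

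Among cytokines and chemokines, 9 of the 27 tested members rose and 1 fell, with a median log2 fold change of 0.42 (27 of 30 listed genes were tested), and against knockdown alone 4 rose and 0 fell, with a median of 0.62. Cxcl1 stood at 213, 190.1 and 163 CPM after knockdown plus ATP, 119, 126 and 96.1 after knockdown alone and 24.4, 31.5 and 23.9 after scrambled siRNA, and no 2 groups overlapped (log2 fold change 2.84, SE 0.15, adjusted p = 2.43e-09 against scrambled siRNA and log2 fold change 0.73, SE 0.13, adjusted p = 0.0155, kept in 2 of 6 fits against knockdown alone). Cxcl10, which attracts T cells and is induced by interferon, stood at 65.4, 63.5 and 63 CPM after knockdown plus ATP, 40.4, 31.5 and 33.5 after knockdown alone and 36.2, 32 and 20.3 after scrambled siRNA (1.11 and 0.86, kept in 1 of 6 fits), with overlap between knockdown alone and scrambled siRNA. The membrane-bound chemokine gene Cx3cl1 (0.76 and 0.83, kept in 6 of 6 fits) also rose against both groups. Outside the list, so did Il1rn, which encodes the natural interleukin 1 antagonist (2.79 and 2.15, kept in 0 of 6 fits). The monocyte attractant gene Ccl7 (0.93), Cxcl12 (0.66), the interleukin 6 family gene Clcf1 (0.54) and Gdf15 rose against scrambled siRNA and did not pass against knockdown alone. Cntf, which encodes the ciliary neurotrophic factor, was the one fall. It stood at 25.4, 27.7 and 25.4 CPM after knockdown plus ATP, 26.4, 19.4 and 22.2 after knockdown alone and 91.1, 93 and 122 after scrambled siRNA. On the log2 scale this was a change of -1.97 (SE 0.14, adjusted p = 7.62e-08). Tnf was listed at 0 in all 6 compared libraries. In the 4 fits that lost Cxcl1, its adjusted p was 0.0737 to 0.0898.

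The NF-kappaB consensus is a decamer that starts with G bases and ends with C bases. Either strand held it for 8 of 15 genes with promoter windows in the NF-kappaB list. In the cytokine and chemokine list it was found for 8 of 21 such genes. Over all genes tested that had windows, the share was 10.4%. The windows of Nfkb1, Nfkb2, Nfkbia, Nfkbie, Cxcl1, Cxcl10 and Ccl7 held it, and all of these rose. It was also in the windows of 9 members that did not pass: Bcl3 (0.42, adjusted p = 0.0887), Nfkbiz (0.53, adjusted p = 0.0567), Map3k8 (0.11, adjusted p = 0.83), Tnip1 (-0.14, adjusted p = 0.375), Cxcl2 (0.66, adjusted p = 0.11), Cxcl6 (0.99, adjusted p = 0.149), Cxcl11 (0.10, adjusted p = 0.904), Ccl20 (-0.20, adjusted p = 0.718) and Il6 (-0.60, adjusted p = 0.516). Shown are the windows of Cxcl1 (chr14:17479272-17479571, minus strand) and Nfkb2 (chr1:255108124-255108423, plus strand), the members of each list with the smallest adjusted p, with the consensus in capitals. In Cxcl1 it is 1 stretch that matches on both strands, -84 from the start, and in Nfkb2 it lies -20 from the start.

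Cxcl1: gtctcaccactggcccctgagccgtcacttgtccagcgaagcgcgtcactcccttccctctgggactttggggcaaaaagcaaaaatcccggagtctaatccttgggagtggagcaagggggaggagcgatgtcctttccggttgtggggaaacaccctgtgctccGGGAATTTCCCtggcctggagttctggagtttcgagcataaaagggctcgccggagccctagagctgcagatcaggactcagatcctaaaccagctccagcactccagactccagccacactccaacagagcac
Nfkb2: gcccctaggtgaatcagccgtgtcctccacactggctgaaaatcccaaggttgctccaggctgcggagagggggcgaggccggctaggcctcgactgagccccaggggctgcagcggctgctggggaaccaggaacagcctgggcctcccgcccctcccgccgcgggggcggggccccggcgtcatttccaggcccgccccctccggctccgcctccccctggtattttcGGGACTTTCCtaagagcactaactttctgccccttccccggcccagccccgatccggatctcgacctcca

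Genes of the interferon response, which restrict viruses and are induced through STAT factors, split: 12 of the 36 tested members rose and 6 fell, with a median log2 fold change of 0.24 (36 of 40 listed genes were tested). Gbp2, which encodes a guanylate-binding GTPase, was the member with the smallest adjusted p, at 886, 938 and 780.3 CPM after knockdown plus ATP, 661, 651 and 644 after knockdown alone and 454, 419 and 312 after scrambled siRNA. This gave a log2 fold change of 1.13 (SE 0.14, adjusted p = 1.56e-05). Gbp5, a related GTPase gene, stood at 95.2, 93.1 and 86.2 CPM after knockdown plus ATP, 32.9, 35.1 and 40.7 after knockdown alone and 60.2, 57.9 and 39.2 after scrambled siRNA. Its values after knockdown plus ATP lay above all others, while those of the other groups overlapped (log2 fold change 1.33, SE 0.14, adjusted p = 0.000451, kept in 6 of 6 fits against knockdown alone). The antiviral gene Rsad2 rose against both (1.05 and 0.85, kept in 0 of 6 fits), and Trim25 (0.73) and Ifi44 (0.54) rose against scrambled siRNA. The membrane proteins that block viral entry went the other way: Ifitm1 (-1.65), Ifitm2 (-0.55) and Ifitm3 (-0.95) fell. Ifitm3 stood at 163, 201 and 144 CPM after knockdown plus ATP, 117, 93.1 and 111 after knockdown alone and 273, 398 and 310.1 after scrambled siRNA. It was higher with ATP than without it (0.66, kept in 0 of 6 fits), and both groups lay below scrambled siRNA. These related genes may share reads. Of the sensors of double-stranded RNA, 7 of the 21 tested members rose and 1 fell, with a median log2 fold change of 0.20. The kinase gene Eif2ak2 (0.89), the RNA editing enzyme gene Adar (0.83) and the sensor gene Ifih1 (0.39) rose, the kinase activator gene Prkra (-0.68) fell, and against knockdown alone 0 rose and 0 fell, while 2 were higher with only the 6 compared libraries.

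Complement genes fell more often than they rose: 1 of the 16 tested members rose and 6 fell, with a median log2 fold change of -0.54 (16 of 20 listed genes were tested), and without the first scrambled library 1 rose and 4 fell. C1r, a protease that starts the classical pathway, was at 122, 161 and 120.0 CPM after knockdown plus ATP, against 302, 267 and 254 CPM after scrambled siRNA (log2 fold change -1.03, SE 0.14, adjusted p = 5.18e-05), and its partner C1s fell by 1.08 on the log2 scale. The complement inhibitor gene Cd59 (-1.42) and the lectin-pathway gene Masp1 (-0.91) fell too. C5ar1, the receptor of the fragment C5a, was the one rise, at 6.72, 13.1 and 9.98 CPM after knockdown plus ATP, 3.94, 4.35 and 3.57 after knockdown alone and 3.1, 3.9 and 2.96 after scrambled siRNA (1.60 and 1.34, kept in 2 of 6 fits). Genes of class I antigen processing gave 1 rise, Tap1 (0.38), and 5 falls of 14, among them the immunoproteasome and proteasome activator genes Psmb9 (-1.09), Psme1 (-0.85), Psme2 (-0.73) and Psmb10 (-0.61).

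**Figure D3:**
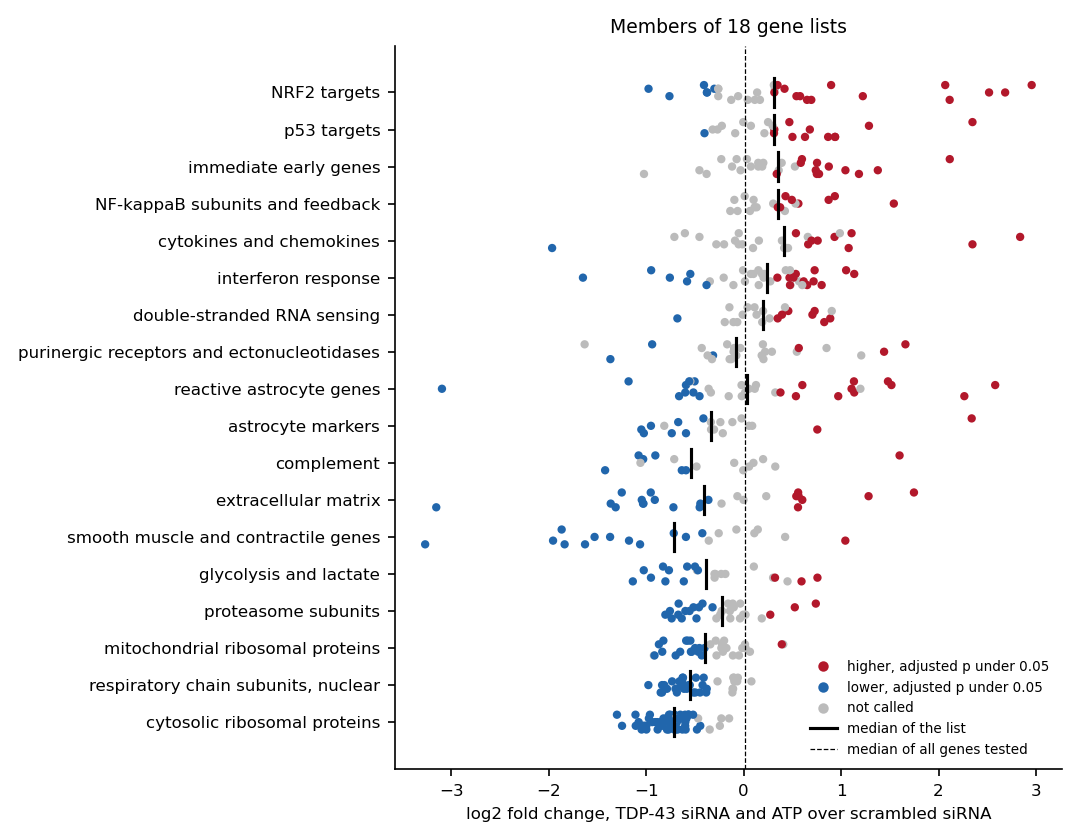
Each point is a tested member of 1 of 18 gene lists (rows), placed by its log2 fold change of knockdown plus ATP over scrambled siRNA (x). Red points rose, blue points fell and grey points were not called; the thick bar is the list's median and the dashed line the median of all genes tested, 0.01. The contractile genes and the cytosolic ribosomal proteins have the lowest medians, -0.72 and -0.72, and cytokines and chemokines highest, 0.42.

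The purinergic genes themselves, through which ATP is sensed and removed, gave few calls: 3 of the 25 tested members rose and 3 fell, with a median log2 fold change of -0.074 (25 of 26 listed genes were tested), a median of 0.14 with total-count scaling. Nt5e, which encodes the ectonucleotidase that forms adenosine from AMP, stood at 13.8, 15.1 and 14.6 CPM after knockdown plus ATP, 8.99, 9.02 and 8.81 after knockdown alone and 4.28, 4.97 and 4.62 after scrambled siRNA, with no overlap between any groups (log2 fold change 1.66, SE 0.16, adjusted p = 2e-06 against scrambled siRNA and log2 fold change 0.70, SE 0.15, adjusted p = 0.0372, kept in 0 of 6 fits against knockdown alone). The metabotropic ATP and ADP receptor gene P2ry1 stood at 21.6, 23.7 and 28.4 CPM after knockdown plus ATP, 22, 20 and 18.1 after knockdown alone and 10.2, 7.32 and 9.1 after scrambled siRNA (1.44), and the groups with and without ATP overlapped (0.29, adjusted p = 0.462). The ectonucleotidase gene Entpd2 rose (0.57), and the ion channel receptor gene P2rx6 (-1.37), the adenosine receptor gene Adora2b (-0.94) and the adenosine kinase gene Adk (-0.31) fell. Adora3 was listed at 0 in all 6 compared libraries.

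Immediate early genes respond to receptor and MAPK signalling, many of them without new protein synthesis. Members of this list rose or did not pass: 12 of the 28 tested rose and 0 fell (28 of 29 listed genes were tested). The median log2 fold change was 0.35, with 7 members negative and 21 positive. Without the first scrambled library 13 rose. Fosl1, an AP-1 subunit gene, stood at 77.8, 76.2 and 72.1 CPM after knockdown plus ATP, 42.5, 45.6 and 39.7 after knockdown alone and 44.3, 44.6 and 45.4 after scrambled siRNA. Its values after knockdown plus ATP lay above all others, and the other groups overlapped (log2 fold change 0.75, SE 0.10, adjusted p = 2.96e-05 against scrambled siRNA and log2 fold change 0.82, SE 0.10, adjusted p = 0.000604, kept in 6 of 6 fits against knockdown alone). Klf6 (1.38), Atf3 (1.04), Junb (0.74), Klf4 (1.18), Myc (0.75), Klf10 (0.59) and Maff (0.87) rose against scrambled siRNA, while the early gene Egr1 did not pass (-0.38, adjusted p = 0.0831). Against knockdown alone 4 rose and 0 fell: Fosl1, Maff (0.66, kept in 0 of 6 fits), the orphan nuclear receptor gene Nr4a1 (1.11, kept in 1 of 6 fits) and the MAPK phosphatase gene Dusp1 (0.64, kept in 4 of 6 fits). Dusp1 stood at 67.5, 65.3 and 67.4 CPM after knockdown plus ATP, 44.7, 37.5 and 46.4 after knockdown alone and 80.5, 78.7 and 75.2 after scrambled siRNA, so that it was lowest after knockdown alone, and against scrambled siRNA it did not pass (-0.23, adjusted p = 0.0913). Of 18 MAPK feedback genes, 6 rose, among them Etv4 (1.17), Spred2 (0.95) and Spry2 (0.56), and 3 fell, among them Errfi1, an inhibitor of the epidermal growth factor receptor (-0.86).

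Calcium and NFAT genes were divided evenly: 7 of the 24 tested members rose and 7 fell, with a median log2 fold change of 0.032. Nfatc2, which encodes a calcineurin-dependent transcription factor, stood at 16.1, 14.7 and 20.9 CPM after knockdown plus ATP, 7, 6.33 and 7.86 after knockdown alone and 7.03, 5.46 and 6.55 after scrambled siRNA, highest after knockdown plus ATP (log2 fold change 1.42, SE 0.18, adjusted p = 2.89e-05 against scrambled siRNA and log2 fold change 1.27, SE 0.18, adjusted p = 0.00281, kept in 6 of 6 fits against knockdown alone). The plasma membrane calcium pump gene Atp2b1 rose (0.75), and the store-operated calcium entry genes Orai1 (-0.48) and Stim1 (-0.48) fell, as did Rcan2 (-1.12) and the calcineurin subunit gene Ppp3cb (-0.52). RGS proteins, which switch off G protein signals, gave 4 rises and 2 falls of 16. Rgs16 stood at 21.5, 21.2 and 18.3 CPM after knockdown plus ATP, 4.47, 8 and 6.11 after knockdown alone and 3.8, 3.9 and 4.55 after scrambled siRNA, with all 3 values with ATP above the other 6 (log2 fold change 2.32, SE 0.21, adjusted p = 7.93e-07 against scrambled siRNA and log2 fold change 1.73, SE 0.20, adjusted p = 0.000451, kept in 6 of 6 fits against knockdown alone). Rgs8 stood at 3.81, 4.56 and 4.21 CPM after knockdown plus ATP, 0.912, 0.959 and 0.946 after knockdown alone and 3.04, 4.1 and 2.83 after scrambled siRNA, lowest after knockdown alone (log2 fold change 2.15, SE 0.31, adjusted p = 0.00281, kept in 6 of 6 fits against knockdown alone), and against scrambled siRNA it did not pass (0.35, adjusted p = 0.35). Rgs2 (0.58) and Rgs3 (0.43) rose, and Rgs10 (-0.47) fell.

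Secreted growth factors gave 5 rises and 9 falls of 26 tested (30 listed), with single genes far to either side. Kitlg stood at 90.2, 83.4 and 106 CPM after knockdown plus ATP, 52.5, 83.3 and 47.6 after knockdown alone and 14.9, 9.85 and 15.6 after scrambled siRNA. Its log2 fold change was 2.77 (SE 0.20, adjusted p = 1.2e-07). Hbegf, a ligand of the epidermal growth factor receptor, stood at 134, 138 and 126 CPM after knockdown plus ATP, 77.3, 84.2 and 82.8 after knockdown alone and 67.2, 52 and 68.1 after scrambled siRNA (1.08 against scrambled siRNA and 0.70, kept in 4 of 6 fits against knockdown alone). Kitlg and Hbegf were higher than in every scrambled library. Igf1 rose (1.22), and Igf2 (-1.47), Tgfb3 (-0.64), Vegfa (-0.59) and Bmp4 (-1.14) fell. Of the receptors among the largest rises, Bdkrb2 stood at 35, 35.7 and 30.8 CPM after knockdown plus ATP, 16.9, 20.7 and 17.9 after knockdown alone and 5.44, 5.56 and 7.93 after scrambled siRNA, with no overlap between any groups (0.88, kept in 2 of 6 fits against knockdown alone). Il1rl1 stood at 21.5, 21.9 and 19.5 CPM after knockdown plus ATP, 17.7, 28.5 and 19.6 after knockdown alone and 3.15, 3.9 and 4.69 after scrambled siRNA (-0.054, adjusted p = 0.947 against knockdown alone).

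Astrocyte markers were abundant in all libraries, with a summed level of 21859.7 to 23771 CPM after knockdown plus ATP, 20969.6 to 24424 CPM after knockdown alone and 25822 to 29709 CPM after scrambled siRNA, lower after knockdown plus ATP than after scrambled siRNA in every library. The most abundant member was the intermediate filament gene Vim, which other cell types express too, at 13679, 14637 and 13419.6 CPM after knockdown plus ATP, against 18069, 19321 and 15292 CPM after scrambled siRNA. The difference was -0.34 on the log2 scale (SE 0.16, adjusted p = 0.104). Gfap, which encodes the intermediate filament that defines astrocytes, stood at 2424, 2874 and 2456 CPM after knockdown plus ATP, against 2870.4, 2234 and 2362 CPM after scrambled siRNA, with overlapping groups (0.055, adjusted p = 0.821). Of the list, 2 of the 19 tested members rose and 7 fell, with a median log2 fold change of -0.33 (19 of 20 listed genes were tested). The water channel gene Aqp4 stood at 535, 629 and 626 CPM after knockdown plus ATP, 411, 436 and 445 after knockdown alone and 999, 898 and 954 after scrambled siRNA, lower than scrambled siRNA in every library (log2 fold change -0.67, SE 0.11, adjusted p = 0.000287). The growth factor receptor gene Fgfr3 (-1.05), Mlc1, linked to a leukoencephalopathy with cysts (-1.02), the astrocyte aldolase gene Aldoc (-0.95), Acsbg1 (-0.74), the glutamate transporter gene Slc1a3 (-0.59) and the glutamine synthetase gene Glul (-0.41) fell. The other glutamate transporter, Slc1a2, the main transporter of mature astrocytes, went the opposite way, at 39.9, 36.3 and 44.6 CPM after knockdown plus ATP, 32, 41.3 and 32 after knockdown alone and 4.09, 8.97 and 11.9 after scrambled siRNA. On the log2 scale this was a change of 2.34 (SE 0.27, adjusted p = 8.21e-06). The bicarbonate transporter gene Slc4a4 rose (0.76). Glutamate and GABA genes as a list gave 2 rises and 6 falls of 18, with the metabotropic receptor gene Grm5 up (1.43) and the GABA transaminase gene Abat (-1.78) down. With total-count scaling the list had 3 rises and 3 falls.

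Genes linked to reactive astrocytes moved both ways: 11 of the 32 tested members rose and 9 fell, with a median log2 fold change of 0.035 (32 of 35 listed genes were tested). Cd44, a hyaluronan receptor gene, stood at 818, 847 and 842 CPM after knockdown plus ATP, 594, 674 and 611 after knockdown alone and 331, 274 and 293 after scrambled siRNA (log2 fold change 1.48, SE 0.12, adjusted p = 1.92e-07), and the membrane protein gene Emp1 rose likewise (1.52); both were higher than scrambled siRNA in every library. Fkbp5 (0.97), Lcn2, Tgm1 (2.58), Gbp2, Cxcl10 and the pentraxin gene Ptx3 (1.13) rose, and the small heat shock protein gene Hspb1 fell (-1.18). Against knockdown alone 4 rose and 0 fell, with a median of 0.32. Ion channel genes gave 7 rises and 4 falls of 23, including the potassium channel genes Kcnq5 (1.22) and Kcnn3, which rose against both groups (1.30 and 0.86, kept in 0 of 6 fits).

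Markers of other cell types that cultures of this kind can hold were present at lower levels. Microglia markers summed to 510.0 to 677 CPM after knockdown plus ATP, 483 to 562 CPM after knockdown alone and 624 to 676 CPM after scrambled siRNA, with 3 rises and 3 falls of 19. These counts were near the shares over all genes tested, where 17.4% rose and 20% fell. Ptprc (0.72), Itgam (0.62) and Cd53 (0.52) rose, and Aif1 (-0.88) and Tmem119 (-0.55) were among the falls. The call of Cd53 was kept in 1 of 6 fits without 1 compared library and that of Itgam in 5. Those of Ptprc and Tmem119 were also lost in at least 1. Oligodendrocyte lineage markers summed to 386 to 450.5 CPM after knockdown plus ATP, 328 to 402 CPM after knockdown alone and 372 to 446 CPM after scrambled siRNA, with 2 rises and 2 falls of 12. Neuron markers summed to 517 to 585 CPM after knockdown plus ATP, 478 to 587 CPM after knockdown alone and 521 to 661 CPM after scrambled siRNA, with 3 rises and 2 falls of 12. Fibroblast, mural and endothelial markers summed to 951 to 1088 CPM after knockdown plus ATP, 926 to 1228 CPM after knockdown alone and 1379 to 1497 CPM after scrambled siRNA, with 1 rise and 5 falls of 13, among them Pdgfrb (-0.66) and Col1a1 (-0.63). Col1a2 and Cldn5 were listed at 0 in all 6 libraries. The sums after knockdown plus ATP and after scrambled siRNA overlapped for microglia, oligodendrocyte and neuron markers and lay lower after knockdown plus ATP for the last list. The part of such cells in the results on immune, matrix and contractile genes was not tested.

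Most tested genes of the cytosolic ribosome and of the respiratory chain fell. Of the cytosolic ribosomal protein genes, 0 of the 60 tested members rose and 54 fell, with a median log2 fold change of -0.72 (60 of 63 listed genes were tested), beside 0.01 for all genes tested. Rps3 stood at 1184, 976 and 950.4 CPM after knockdown plus ATP, 1434, 1444 and 1276 after knockdown alone and 1999, 2199 and 2515 after scrambled siRNA. Rpl7 stood at 1012, 846 and 786 CPM after knockdown plus ATP, 1068, 1173 and 992 after knockdown alone and 1696, 2626 and 2188 after scrambled siRNA. The scrambled libraries lay highest for both, and the knockdown groups overlapped each other for Rpl7 (log2 fold change -1.11, SE 0.14, adjusted p = 1.79e-05 for Rps3 and log2 fold change -1.30, SE 0.16, adjusted p = 1.78e-05 for Rpl7). Of the list, 1 member passed against knockdown alone, Rps28 (-0.62, kept in 2 of 6 fits), and the median was -0.43. That count depended on the fit, with 30 lower with DESeq2, 45 with only the 6 compared libraries and 24 without the first scrambled library. The summed level of the list was 47439 to 58013 CPM after knockdown plus ATP, 62429 to 72383 CPM after knockdown alone and 72573 to 100558 CPM after scrambled siRNA. Without the first scrambled library, 57 fell, with a median of -0.84, and with total-count scaling 46 fell, with a median of -0.49. Ribosomal protein genes have many near-identical pseudogene copies, and the sources do not say how reads that map to several places were counted, so single values are uncertain.

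Nuclear genes of the respiratory chain, which makes ATP in mitochondria, gave 0 rises and 27 falls of 37, with a median of -0.55. Cox5a, a subunit gene of cytochrome c oxidase, stood at 105, 97.9 and 92.1 CPM after knockdown plus ATP, 119, 136 and 118 after knockdown alone and 176, 186 and 166 after scrambled siRNA, lowest after knockdown plus ATP and highest after scrambled siRNA (log2 fold change -0.84, SE 0.10, adjusted p = 1.42e-05 against scrambled siRNA and log2 fold change -0.34, SE 0.10, adjusted p = 0.134 against knockdown alone). Uqcr10 of the third complex (-0.98), the ATP synthase genes Atp5c1 (-0.81) and Atp5o (-0.69), the cytochrome c gene Cycs (-0.84) and Ndufa5 of the first complex (-0.73) fell. Mitochondrial ribosomal protein genes gave 1 rise and 16 falls of 33 (median -0.40), with Mrps18a at -0.91, and without the first scrambled library 21 fell. Proteasome subunit genes gave 3 rises and 13 falls of 31 (median -0.22): the core particle genes Psma2 (-0.80), Psma6 (-0.74), Psmb5 (-0.67) and Psmb6 (-0.76) fell, and the lid genes Psmd7 (0.74) and Psmd13 (0.53) rose. No member of these 3 lists passed against knockdown alone, and their medians were -0.29, -0.23 and -0.16 in the order given. With DESeq2, 2, 0 and 4 members were lower, with only the 6 compared libraries 16, 8 and 7, and without the first scrambled library 6, 5 and 5, and 0 were higher in these fits. Cox5a (-0.34, adjusted p = 0.0337), Psmb5 (-0.43, adjusted p = 0.00817) and Psmb6 (-0.56, adjusted p = 0.00625) were among those that DESeq2 called. Glycolysis genes gave 3 rises and 10 falls of 22: the lactate dehydrogenase gene Ldhb (-1.02), the hexokinase gene Hk1 (-0.80), Pfkl (-0.77) and the lactate transporter gene Slc16a1 (-0.83) fell, and Pfkp rose (0.59). Their median against knockdown alone was -0.035.

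Targets of the tumour suppressor p53 rose more often than they fell: 11 of the 21 tested members rose and 1 fell, with a median log2 fold change of 0.31 (21 of 24 listed genes were tested). The cell cycle inhibitor gene Cdkn1a stood at 353, 331 and 356 CPM after knockdown plus ATP, 363, 347 and 368 after knockdown alone and 256, 213 and 202 after scrambled siRNA, above scrambled siRNA in every library of both other groups (log2 fold change 0.63, SE 0.11, adjusted p = 0.000324). Gdf15, Zmat3 (0.94), the nuclease gene Aen (0.87), the p53 inhibitor gene Mdm2 (0.50) and the death-promoting genes Bbc3 (0.68) and Pmaip1 (1.29) rose. Of the cell cycle, there were 9 rises and 4 falls of 33 tested, with the cyclin gene Ccnd1 at 915, 842 and 892 CPM after knockdown plus ATP, 629, 887 and 714 after knockdown alone and 461, 326 and 396 after scrambled siRNA (log2 fold change 1.16, SE 0.15, adjusted p = 2.43e-05), Ccnd2 (0.67), the centromere genes Cenpa (1.09) and Cenpf (0.90) up, and Ccnd3 (-0.54) and E2f1 (-0.47) down. Of both lists no member passed against knockdown alone, and with only the 6 compared libraries 1 p53 target was higher, 1 lower and 3 cell cycle genes lower.

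Stress response genes rose and fell within each list, where 17.4% of all genes tested rose and 20% fell. The counts of the endoplasmic reticulum list and of the autophagy and lysosome list were not far from these shares. Of the integrated stress response, 9 of the 24 tested members rose and 6 fell, with a median log2 fold change of 0.28: the amino acid transporter gene Slc7a1 (1.18) rose with Atf3 and Cebpb (0.73), and Ddit4 (-0.85), the serine synthesis gene Phgdh (-0.67) and Stc2 (-1.20) fell. Of chaperones and sensors of the endoplasmic reticulum, 4 rose, among them Dnajb9 (0.66), the sensor gene Ern1 (0.94) and Hspa5 (0.36), and 5 of 22 fell, among them the protein disulfide isomerase gene P4hb, at 655, 678 and 619 CPM after knockdown plus ATP, against 1574, 1113 and 1247 CPM after scrambled siRNA. This gave a log2 fold change of -1.01 (SE 0.14, adjusted p = 3.87e-05). Of heat shock genes, 5 rose, such as Hspb8 (0.67), and 6 of 18 fell, such as Hsph1 (-1.21) and the crystallin gene Cryab (-1.48). Autophagy and lysosome genes gave 8 rises and 5 falls of 35: the autophagy genes Atg16l1 (1.22) and Atg12 (0.86) and the autophagy receptor gene Sqstm1 (0.74) rose, and Atg3 (-0.78) and the hexosaminidase gene Hexa (-0.36) fell. No member of these 4 lists passed against knockdown alone, and with only the 6 compared libraries 3 were higher and 3 lower.

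Transcripts that TDP-43 is known to bind or splice, mostly from studies of human cells and mice, formed a list of 25, of which 23 were tested. Of the 23, 7 rose and 3 fell. Of all genes tested, 17.4% rose and 20% fell, so in the list rises were more frequent and falls less frequent. As for the other lists, this is a description and not a test. Its median log2 fold change was -0.00069, beside 0.01 for all genes tested. With total-count scaling the median was 0.22, beside 0.24 for all genes tested. Poldip3, whose splicing TDP-43 controls in human cells, stood at 68, 70.8 and 68 CPM after knockdown plus ATP, 70.1, 63.8 and 68.8 after knockdown alone and 171, 139.9 and 129.8 after scrambled siRNA. Its log2 fold change was -1.09 (SE 0.11, adjusted p = 2.6e-06). Sort1, which encodes sortilin, stood at 174, 168 and 170.2 CPM after knockdown plus ATP, 172, 165 and 179 after knockdown alone and 314, 297 and 330.4 after scrambled siRNA. The difference was -0.88 on the log2 scale (SE 0.09, adjusted p = 5.03e-06). Both were lower than scrambled siRNA in every library of both other groups, and the libraries with and without ATP overlapped. Tmem2 (1.0), Adipor2 (0.61), the tau gene Mapt (0.68) and Unc13a (0.61) rose. Of RNA-binding protein genes, 4 of 35 rose and 2 fell, and without the first scrambled library 11 rose. Caprin1, which encodes a stress granule protein, stood at 50.3, 59.6 and 58.4 CPM after knockdown plus ATP, 61.9, 57.8 and 45.2 after knockdown alone and 428, 329.9 and 369.8 after scrambled siRNA (log2 fold change -2.74, SE 0.14, adjusted p = 1.81e-09), 14.9% of the scrambled level, beside 15.5% for Tardbp. Celf1, a splicing regulator gene, rose (1.28). Gene counts do not show splicing, which was not analysed here.

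What differed with ATP was tested directly against knockdown alone, where 112 genes were higher (0.926%) and 17 lower (0.141%). Against scrambled siRNA, knockdown alone had 1956 genes higher (16.2%) and 2198 lower (18.2%). The libraries after knockdown alone both selected the 112 and the 17 genes and place them below. This favours low values in that group among genes higher with ATP, and high values among those lower. Counts of the patterns are therefore descriptive. Set beside scrambled siRNA, which both other groups share as their control, the 112 fell into several patterns. For 17 of them, among them Rgs16, Txnip, Hbegf, Cxcl1, Nfkb2, Nt5e and Spp1, knockdown alone was already above scrambled siRNA and the group with ATP lay higher still. For 42, such as Nfatc2, Fosl1, Cx3cl1, Olr1, Hdac5, C5ar1, Rsad2 and Il1rn, a rise against scrambled siRNA was called with ATP and not after knockdown alone. For 5, namely Tnfaip2, Gbp5, Lbh, Hspa4l and Myof, knockdown alone was below scrambled siRNA and the group with ATP above it. For 33, knockdown alone was below scrambled siRNA and the group with ATP was not called, and for 12 both groups were below scrambled siRNA. The last 3 were called in neither group. Of the 17 that were lower with ATP, 5 were below scrambled siRNA in both groups, 6 with ATP and not after knockdown alone, 5 were above scrambled siRNA after knockdown alone and not called with ATP, and 1 was above it in both.

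Txnip, a thioredoxin-binding regulator of glucose uptake, stood at 151, 178 and 146 CPM after knockdown plus ATP, 81.7, 73.9 and 93.2 after knockdown alone and 64.4, 61.9 and 68.6 after scrambled siRNA. The log2 difference from knockdown alone was 0.93 (SE 0.11, adjusted p = 0.000604, kept in 6 of 6 fits). Olr1 stood at 7.94, 8.39 and 8.98 CPM after knockdown plus ATP, 0.953, 0.576 and 1.24 after knockdown alone and 1.99, 0.39 and 1.03 after scrambled siRNA, with the group given ATP above all other libraries (log2 fold change 3.14, SE 0.39, adjusted p = 0.000679, kept in 6 of 6 fits against knockdown alone). Lbh, which encodes a transcription cofactor, stood at 58.3, 60.8 and 60.1 CPM after knockdown plus ATP, 25.8, 30.8 and 29 after knockdown alone and 40, 37.7 and 31.3 after scrambled siRNA. Compared with knockdown alone, the log2 fold change was 1.07 (SE 0.12, adjusted p = 0.000451, kept in 6 of 6 fits). These show the 3 upward patterns: a step above an already raised level, a rise from an unraised one, and a rise across the scrambled level. The chaperone gene Hspa4l (0.85, kept in 6 of 6 fits) and the histone deacetylase gene Hdac5 (0.81, kept in 6 of 6 fits) were smaller changes of the same kinds. Among the 33 genes that were not called against scrambled siRNA with ATP but lay below it without ATP, Ppap2a, which encodes a lipid phosphatase, stood at 345, 338 and 331 CPM after knockdown plus ATP, 206, 206 and 229.8 after knockdown alone and 319, 342 and 332 after scrambled siRNA. The log2 difference from knockdown alone was 0.66 (SE 0.10, adjusted p = 0.00367, kept in 6 of 6 fits). Vgf, a neuropeptide precursor gene, stood at 174, 191 and 178 CPM after knockdown plus ATP, 109.8, 86.8 and 105 after knockdown alone and 250.3, 175 and 194 after scrambled siRNA. Compared with knockdown alone, the log2 fold change was 0.85 (SE 0.13, adjusted p = 0.00489, kept in 6 of 6 fits). For both, the libraries after knockdown plus ATP and after scrambled siRNA overlapped, and those after knockdown alone lay below. The endocannabinoid-degrading lipase gene Mgll (0.98, kept in 6 of 6 fits), the muscle LIM protein gene Csrp3 (1.07, kept in 6 of 6 fits), and the adhesion molecule genes Vcam1 (0.73, kept in 1 of 6 fits) and Icam1 (0.57, kept in 0 of 6 fits) had the same pattern. Iqsec3, an exchange factor gene for the GTPase ARF, stood at 30.7, 29.9 and 35.1 CPM after knockdown plus ATP, 16, 16.5 and 14.8 after knockdown alone and 53.8, 62.9 and 69.2 after scrambled siRNA. The log2 difference from knockdown alone was 1.01 (SE 0.13, adjusted p = 0.000679, kept in 6 of 6 fits). Klhdc8a stood at 19.3, 17.5 and 17 CPM after knockdown plus ATP, 8.29, 5.12 and 7.93 after knockdown alone and 48.5, 41 and 35.6 after scrambled siRNA. Compared with knockdown alone, the log2 fold change was 1.32 (SE 0.17, adjusted p = 0.00127, kept in 6 of 6 fits). Both were between the other groups. On the lower side, Car3, which encodes a carbonic anhydrase, stood at 29.6, 20.7 and 24.6 CPM after knockdown plus ATP, 47.8, 39.9 and 43.1 after knockdown alone and 87.1, 84.8 and 82.5 after scrambled siRNA. The log2 difference from knockdown alone was -0.81 (SE 0.13, adjusted p = 0.0055, kept in 5 of 6 fits). Bcl2l11, which encodes the death-promoting protein BIM, stood at 39.8, 37.6 and 43.8 CPM after knockdown plus ATP, 64, 60.8 and 57.3 after knockdown alone and 56.5, 56.7 and 55.7 after scrambled siRNA. Compared with knockdown alone, the log2 fold change was -0.59 (SE 0.10, adjusted p = 0.0109, kept in 3 of 6 fits).

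These calls are few and depend on the fit. In the 6 fits that left out 1 of the compared libraries, 21 to 48 genes were higher and 0 to 5 lower, DESeq2 called 266 and 164, and a fit of only the 6 compared libraries called 431 and 386. Without the first scrambled library, which enters this comparison through the shared estimate of spread, 275 were higher and 226 lower, while without the second or the third 154 and 105 were higher and 37 and 14 lower. Called in the fit of all libraries and in each of those 6 were 19 genes higher and 0 lower, among them Rgs16, Txnip, Nfatc2, Cx3cl1, Fosl1, Hdac5, Hspa4l, Lbh, Olr1, Gbp5, Tnfaip2, Ppap2a, Mgll, Vgf, Csrp3, Rgs8, Iqsec3 and Klhdc8a.

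Repeat elements, the transposon-derived and structural repeats counted by name in the same poly(A) libraries, gave almost no calls. Of 1275 elements 1137 were tested, 1 rose (0.088%) and 2 fell (0.176%), and 168 had an unadjusted p under 0.05. Against knockdown alone none was called (0% either way). In CPM of repeat counts, MLT1H, an element of a mammalian long terminal repeat retrotransposon family, stood at 82.5, 76.7 and 64.2 after knockdown plus ATP, 80.7, 100 and 104 after knockdown alone and 41.8, 40 and 41.8 after scrambled siRNA. On the log2 scale this was a change of 0.85 (SE 0.14, adjusted p = 0.0419). ORSL stood at 6.75, 6.77 and 5.48 after knockdown plus ATP, 7.35, 6.33 and 6.39 after knockdown alone and 64.1, 30.6 and 26.5 after scrambled siRNA. This gave a log2 fold change of -2.67 (SE 0.32, adjusted p = 0.0107). RNIAP1b stood at 9.81, 8.67 and 8.71 after knockdown plus ATP, 8.04, 6.63 and 9.4 after knockdown alone and 39, 18.3 and 27.4 after scrambled siRNA. Its log2 fold change was -1.64 (SE 0.26, adjusted p = 0.0419). Each separated both knockdown groups from scrambled siRNA, and the scrambled libraries were widely spread for ORSL and RNIAP1b, with the first one highest. That library held 3.3 M repeat counts, beside 36.9 and 39.1 M in the other scrambled libraries. Ribosomal RNA elements came to 85.1, 46.6 and 118 counts per 100 gene counts after knockdown plus ATP, 108, 196 and 45.4 after knockdown alone, and 3.28, 309 and 238 after scrambled siRNA. Without the first scrambled library 7 elements rose and 25 fell, without the second 5 rose and 72 fell, without the third 0 rose and 1 fell, and without any one of the libraries given ATP 0 were called, so no call of the repeat table held in every such fit. DESeq2 called 12 higher and 54 lower.

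**Figure D4:**
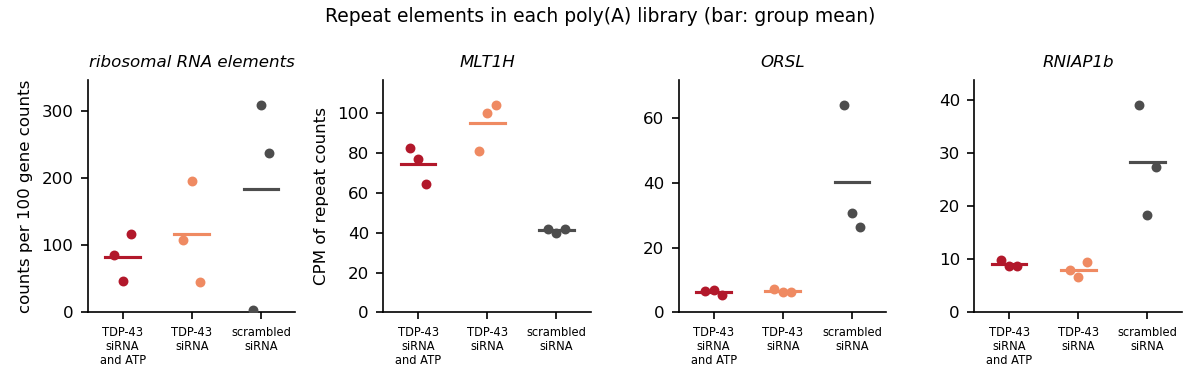
The first panel gives counts of ribosomal RNA elements per 100 gene counts (y) in each of the 9 poly(A) libraries, and the others the levels of the 3 called elements in CPM of repeat counts; bars are group means. The lowest scrambled point of the first panel, 3.28, is the library that is highest for ORSL and RNIAP1b.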

How the data were processed

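Gene and repeat-element counts of the poly(A) libraries were used as the authors deposited them, as whole numbers per feature; Trimmomatic, TopHat2, Bowtie2, DESeq2 and the rat build rn6 are listed, without versions, per the submitters' processing notes. The counting rule, its strand setting and what was done with multiply mapped reads are not stated there. From 17337 rows, 26 whose symbol had become a calendar date were left out. Genes were filtered with filterByExpr, scaled by TMM and tested with edgeR 4.0.16 (quasi-likelihood test, Benjamini-Hochberg adjustment, threshold 0.05) in R 4.3.3, in 1 fit of the 9 poly(A) libraries. Each standard error is the fold change divided by the square root of its F statistic. Library totals were between 11.5 and 40.3 (in M gene counts), and low counts limit the precision of weakly expressed genes.

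The scripts were tested on simulated counts with known fold changes. Members and 44 gene lists were chosen with earlier results of these data known. Named genes are Tardbp and the 20 largest rises and falls by the rule on level and overlap given above. Also named are up to 6 members per list by adjusted p and the most abundant members of marker lists. The 10 smallest p against knockdown alone were added. Other genes named were chosen after their values were seen. Some genes that the rule names are not reported here. The repeat table served as a supplement, and libraries of total and antibody-bound RNA were not used. Promoter windows came from RefSeq (GRCr8), separate from the build of the counts. Alternatives were DESeq2 1.42.0, other scalings and filters, a fit of only the compared libraries, the replicate block and each library left out.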

Additional observations from a re-analysis of the deposited data

How the results depend on the processing

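Each named gene or repeat element was counted once per comparison and per fit, so 1 gene enters many times. With 1 library left out, 3033 such entries kept their side of the threshold, including those uncalled in both fits. Another 178 lost their call and 11 gained one. Under other settings 4138 kept their side, 47 lost and 86 gained a call. These counts are not shares of calls that held. Of all calls against knockdown alone, 19 of 112 higher and 0 of 17 lower were kept in every fit without 1 compared library. No result that was called in either of the fits compared turned round in direction. A change of sign between uncalled values was not counted as a move. Against scrambled siRNA, total-count scaling gave 4099 genes higher and 1400 lower, and 741 and 370 by at least 2-fold, so that 74.5% of calls were rises, where TMM gave 46.6%. A filter of at least 5 CPM in at least 3 libraries left 254 genes higher by at least 2-fold. Leaving out 1 library gave 1481 to 2285 higher and 1759 to 2498 lower.

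The comparison with knockdown alone had 266 genes higher and 164 lower with DESeq2, 431 and 386 with only the 6 compared libraries, 21 to 48 and 0 to 5 with 1 compared library left out, and 36 lower with no filter on low counts. Leaving out a scrambled library, added after the data were seen, gave 105 to 275 higher and 14 to 226 lower, the most without the first. For repeat elements, DESeq2 gave 12 higher and 54 lower, only the 6 compared libraries 0 and 0, 0 and 1 with library sizes taken from gene counts, total counts 0 lower and upper-quartile factors 12 lower, and leaving out 1 library gave 0 to 7 higher and 0 to 72 lower. The cause was not tested.

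Same-numbered libraries did not deviate together, with correlations of -0.02, -0.07 and 0.12 between knockdown plus ATP and scrambled siRNA. Between knockdown plus ATP and knockdown alone they were -0.0031, -0.14 and -0.15. The replicate numbers are therefore not taken as pairs. Library 2 of knockdown plus ATP and library 3 of knockdown alone had a correlation of 0.17. A batch shared under other numbers was not tested. With the replicate block, 1903 genes were higher and 2153 lower against scrambled siRNA, 62 and 6 against knockdown alone, and 0 and 1 repeat elements were called. Low counts limit what can be called for weakly expressed genes, and 3 libraries a group limit all tests.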

Other observations

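Readouts of Wnt, Notch and BMP signalling fell more often than they rose with TMM: 3 of the 27 tested members rose and 10 fell, with a median log2 fold change of -0.19, while total-count scaling gave 6 rises, 6 falls and a median of 0.033. Sfrp2, which encodes a secreted Wnt antagonist, stood at 1.72, 2.5 and 2.75 CPM after knockdown plus ATP, 2.07, 0.512 and 2.84 after knockdown alone and 14.6, 8.97 and 13 after scrambled siRNA (log2 fold change -2.41, SE 0.37, adjusted p = 0.000129). Nkd1 (-1.31), the receptor gene Fzd1 (-0.92) and the Notch target Hes1 (-1.03) fell, and Id4 (0.76) and the BMP antagonist gene Grem1 (0.86) rose. In sterol synthesis and uptake, 4 of the 22 tested members rose and 6 fell, with a median log2 fold change of 0.048. The squalene synthase gene Fdft1 rose (0.48), and the farnesyl diphosphate synthase gene Fdps (-0.38) and the cholesterol exporter gene Abca1 (-0.73) fell.

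In fatty acid synthesis, 3 of the 22 tested members rose and 5 fell, with a median log2 fold change of -0.02 (0.20 with total counts), and the citrate lyase gene Acly fell (-0.59). Of eicosanoid genes, 1 rose, the phospholipase gene Pla2g4a (0.86), and 2 of 18 fell. Of inflammasome genes, Txnip rose and the pore-forming gasdermin gene Gsdmd (-1.07) and Casp4 (-0.68) fell, out of 13. Cytosolic aminoacyl-tRNA synthetases gave 5 rises and 1 fall of 20. Metal and iron genes gave 2 rises and 2 falls of 16, with the metallothionein gene Mt3 at 194, 199 and 165 CPM after knockdown plus ATP, 185, 151 and 229.7 after knockdown alone and 486, 631 and 830.4 after scrambled siRNA (log2 fold change -1.80, SE 0.18, adjusted p = 2.43e-06).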
